A study of Elaeis guineensis with 12 samples.

Results

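Mantled and normal carpel were compared in 6 of the 12 libraries of the series, those labelled carpel: 3 with the phenotype mantled and 3 with the phenotype normal. All came from clonal plants of the oil palm Elaeis guineensis whose flowers had reached developmental stage 3, with the carpel cut out of frozen sections of female spikelets by laser capture. The mantled libraries came from 3 palms, called mantled palms 1, 2 and 3 here. The normal libraries came from 2 palms: normal palm 1 gave replicates 1 and 2, from a single inflorescence, and normal palm 2 gave replicate 3. Replicates 1 and 2 were summed before testing, so that 3 mantled palms stood against 2 normal palms. The palm identifiers of mantled palm 1 and of the other palms differ in their prefix. The labels do not give the meaning of that prefix, nor do they name an agent or allele for any palm.

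The mantled state is a somaclonal variant that appears in palms raised through tissue culture. In a mantled female flower the staminodia, sterile male organs, develop as carpel-like pseudocarpels around the true carpel. In the usual account of floral organ identity, B-class MADS-box genes act in petals and stamens and C-class genes in stamens and carpels, so the carpel is an organ in which B-class function is not normally at work. The comparison addresses whether the female organ that keeps its identity also differs in mantled flowers. None of the feature IDs (0 matches) was found in the RefSeq gene table for assembly EG11, so gene models are given by ID, with no name or function, and the carpel identity of the libraries could not be checked against marker genes. A gene model here is a deposited feature, or the sum of the numbered parts of 1 model, of 26087 models in all. The scaffold is part of each ID, while start, end and strand were not in the files.

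The MAKER model augustus-gene-87.59 of scaffold p5_sc00001 had the smallest p of the comparison and lower values in mantled carpel. IDs of this kind are written here without their prefix, in which the scaffold is repeated, and their ending mRNA-1:cds. Its level, in CPM (read counts scaled to a common total of assigned reads, with TMM factors), was 106 in mantled replicate 1, 143 in replicate 2 and 233 in replicate 3, against 762, 783 and 633 in normal replicates 1, 2 and 3. The highest mantled library was thus well below the lowest normal one. Over palms the mean was 161 CPM ± 65.8 (SD, n = 3) in mantled and 707 ± 101 (SD, n = 2) in normal carpel. The log2 difference was -2.14 (SE 0.321, 95% interval -2.84 to -1.43), or 4.40-fold lower, with an unadjusted p of 3.26e-05 and an adjusted p of 0.528 by the quasi-likelihood test of edgeR. It did not pass the threshold of 0.05 after adjustment over all tested models. In captured tissue, fewer cells of a type and less RNA per cell cannot be told apart.

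Model p5_sc00008_cds_513, on scaffold p5_sc00008, came second among those with lower values. It stood at 2.19, 3.10 and 6.42 CPM in the mantled libraries and at 76.6, 93.2 and 14.8 CPM in the normal libraries, in replicate order. The groups did not overlap, but normal palm 2 was nearer to the mantled libraries than to normal palm 1. The log2 difference of -3.77 (SE 0.763, 95% interval -5.45 to -2.10) had an adjusted p of 0.996 in edgeR. The mean over normal palms, 50.8 CPM, was matched by an SD of 50.8 (n = 2), against 3.92 ± 2.23 (SD, n = 3) in mantled palms.

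Among models with higher values in mantled carpel, p5_sc00142_cds_115 on scaffold p5_sc00142, a model of 18 parts, had the smallest p. Its level was 114, 89.4 and 65.5 CPM in mantled replicates 1, 2 and 3 and 27.4, 29.1 and 35.1 CPM in the normal libraries. The normal libraries lay close together and all below the mantled ones. Palm means were 90.0 CPM ± 24.4 (SD, n = 3) and 31.9 ± 4.74 (SD, n = 2), a log2 difference of 1.51 (SE 0.370, 95% interval 0.69 to 2.32, adjusted p = 0.996 in edgeR). Next came augustus-gene-29.45 of scaffold p5_sc00079, at 45.1, 27.3 and 114 CPM in mantled and 14.2, 12.4 and 7.62 CPM in normal libraries. Its mantled palms differed among themselves more than the lowest of them differed from normal palm 1. The log2 difference was 2.53 (SE 0.634, 95% interval 1.14 to 3.93, adjusted p = 0.996 in edgeR).

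**Figure D1:**
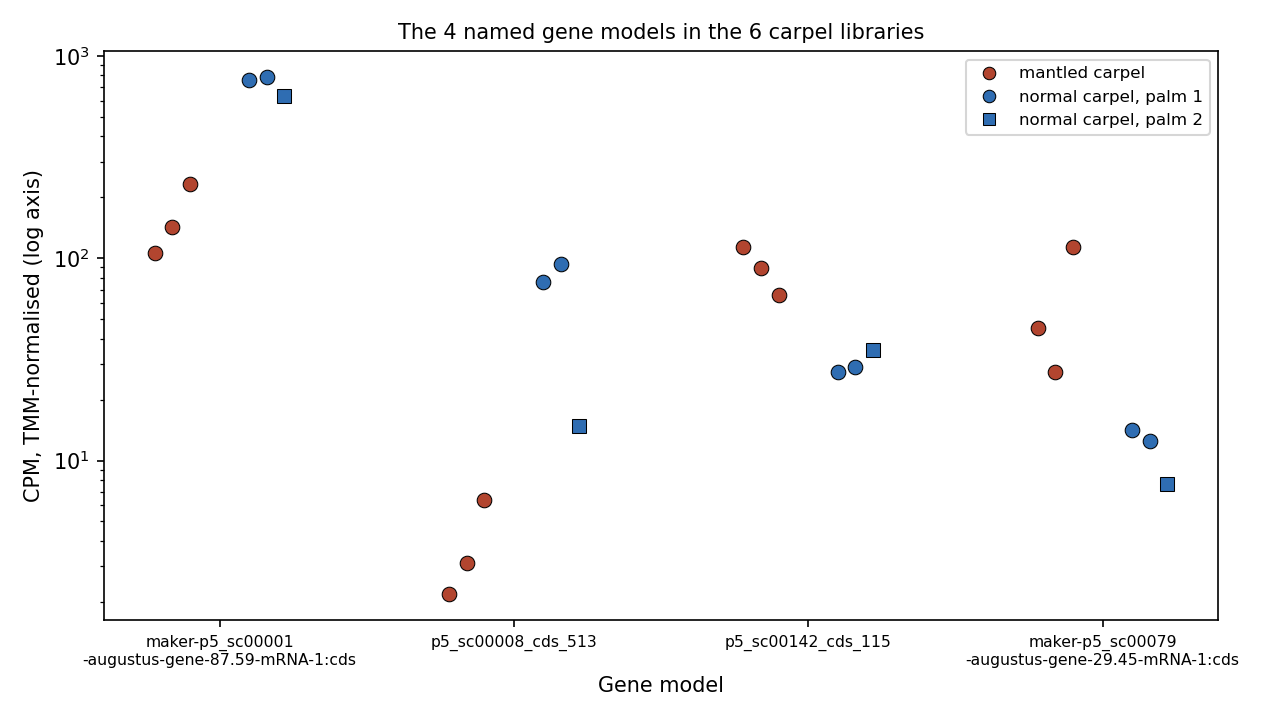
TMM-normalised CPM (log axis) of the 4 named gene models in each of the 6 carpel libraries, 1 point per library, with the library of normal palm 2 as a square. Mantled and normal libraries do not overlap in any of the 4 models. In p5_sc00008_cds_513 normal palm 2, at 14.8 CPM, lies between the mantled libraries and those of normal palm 1.

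Of 16191 models tested with edgeR, 0 had an adjusted p under 0.05, a called share of 0%. An unadjusted p under 0.05 was found for 607 models (3.75%), 321 higher and 286 lower in mantled carpel, where 810 would be expected without any difference. DESeq2 called 4 models (0.0247%) and limma voom 4 (0.0247%), all lower in mantled carpel, and 1 model was called by both tools. The first of these lists held both named lower models and the second held augustus-gene-87.59. All models on both lists had every mantled library below every normal one.

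The fit could resolve only large differences in most models. The median 95% interval reached 1.42 log2 units to either side of the estimate, or 2.68-fold. Precision depended on level: among the 5397 models with the highest levels (median 86.2 CPM) the median SE was 0.342, against 1.48 among the 5397 with the lowest (median 4.95 CPM). The median absolute difference was 0.25 in the former and 0.87 in the latter, below the median SE in both. A model without a call is therefore not shown to be equal in mantled and normal carpel.

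Every mantled library lay above every normal library in 1225 of the 16191 models (7.57%), and below every normal library in 892 (5.51%), beside the 0% called. The directions came closer together with median-ratio size factors, at 1170 and 965 models. Requiring the lowest library of one phenotype to be at least 2 times the highest of the other left 149 of the 16191 models higher and 62 lower in mantled carpel. Models with higher values outnumbered those with lower ones under each of these counts, which were not tested. The median log2 difference over all tested models was also above 0, at 0.07. A model without a read in a normal library cannot lie below every normal library. Likewise, one without a read in a mantled library cannot lie above every normal library. Of the tested models, 2293 (14.2%) had no read in normal replicate 3, and the part of these in the direction of the counts was not tested. With so few libraries, some models separate completely without any difference between the phenotypes. How many would do so was not estimated, so these counts alone do not show a difference.

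**Figure D2:**
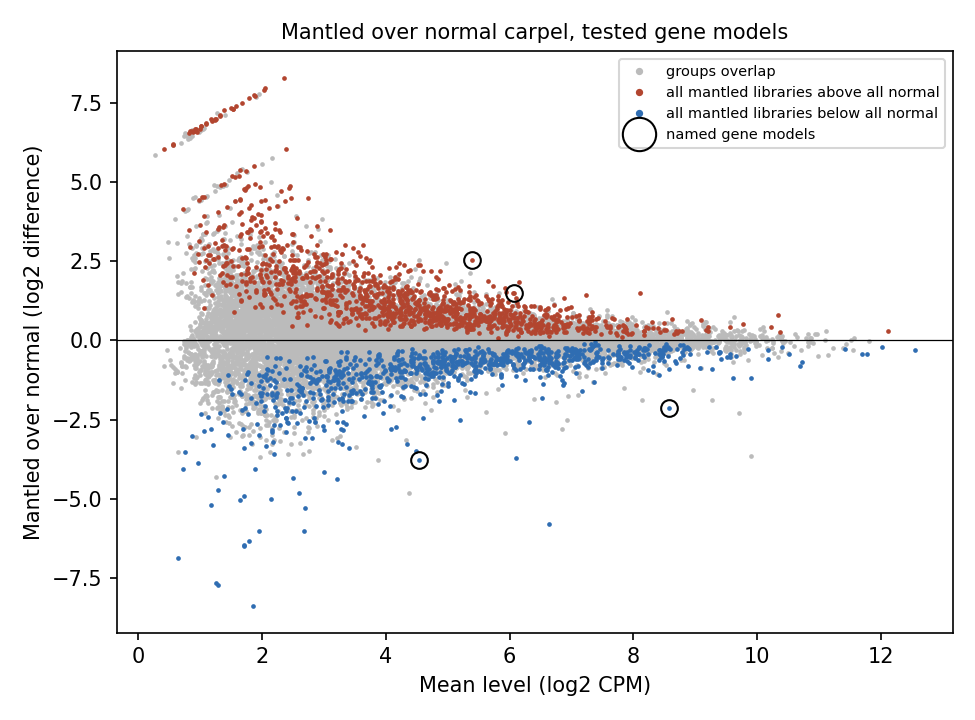
Log2 difference of mantled over normal carpel (vertical axis) against mean level in log2 CPM (horizontal axis) for the 16191 tested models, 1 point each, with models whose libraries do not overlap in colour and the 4 named models circled. Differences spread out towards low levels, and the 68 models fitted above 5 log2 units had at most 1 read in all normal libraries together, so that their fitted values depend on the prior count.

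Normal carpel replicate 3, the one library of normal palm 2, stood apart from the other libraries. Across the tested models, its log2 CPM correlated with the other 5 libraries at a Pearson r of 0.755 to 0.792. The pairs among the other libraries ran from 0.839 to 0.910, the highest being normal replicates 1 and 2 of the same palm. These are correlations across models, which are not independent replicates. After thinning each library to 2121145 reads, the total of the smallest, 14653 models had a read in normal replicate 3, against 16721 to 18316 in the others.

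Normal replicate 3 also lacked reads of models that were well read elsewhere. Of 10289 models with at least 10 reads in each of the other 5 thinned libraries, 303 (2.94%) had no read in it. The same count was 1 to 21 models when each of the other libraries was taken in its place. Within models of at least 3 parts and 100 reads, 48.5% of the parts had a read in normal replicate 3, against 60.9% in mantled replicate 3 and 66.2% to 67.5% in the remaining libraries. Coverage of each model was thus patchier in the libraries of normal palm 2 and, to a smaller degree, mantled palm 3.

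**Figure D3:**
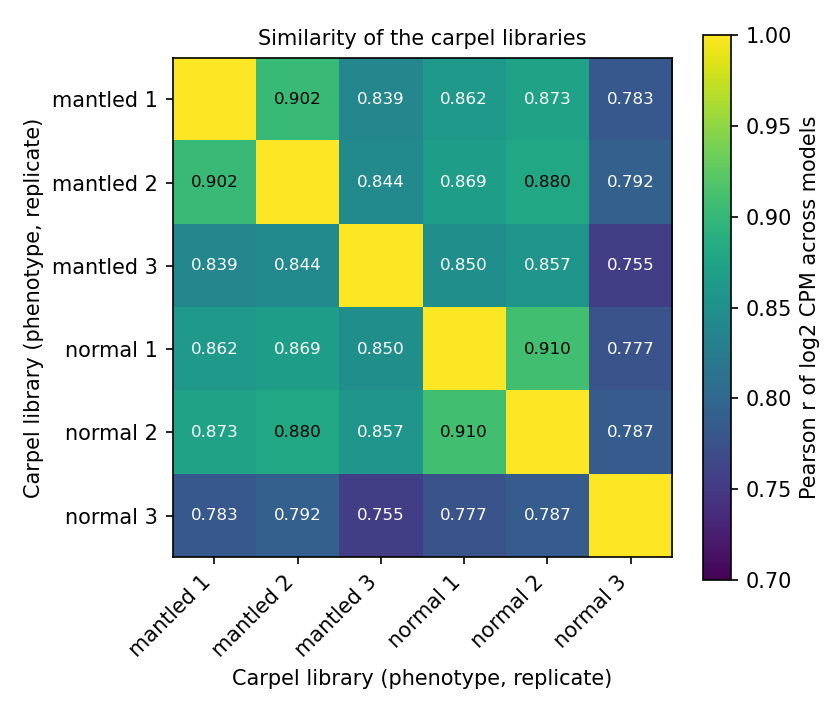
Pearson r of log2 CPM across tested models for each pair of the 6 carpel libraries, named by phenotype and replicate. The row and column of normal replicate 3 hold the lowest values (0.755 to 0.792), and the 2 libraries of normal palm 1 the highest (0.910).

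**Figure D4:**
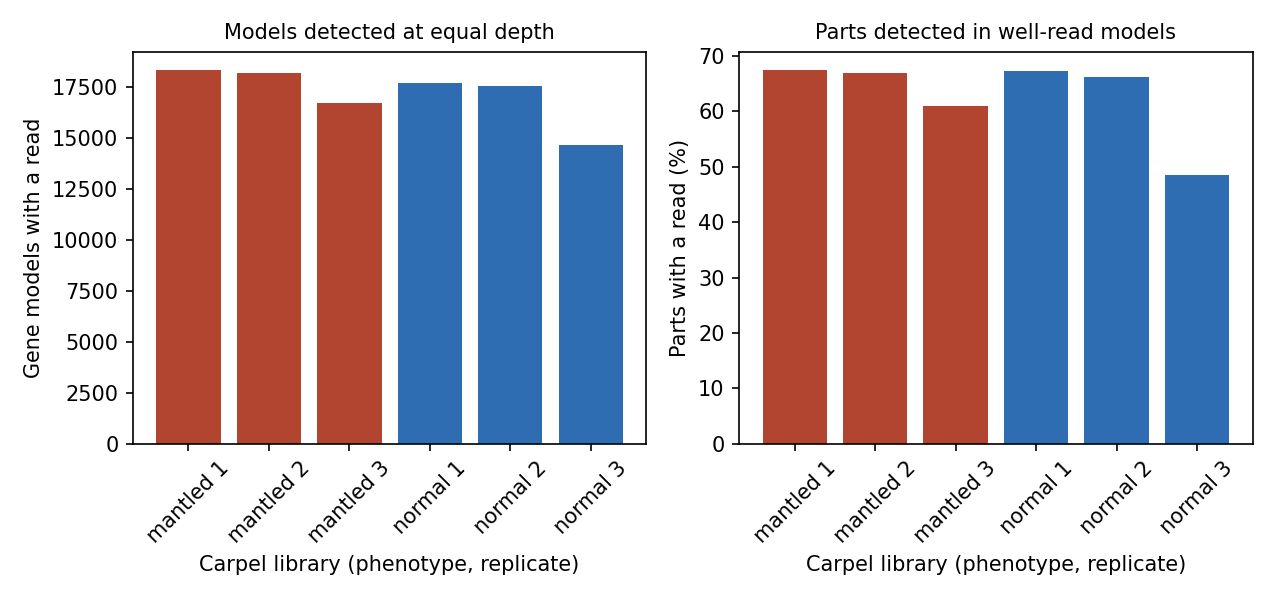
Gene models with a read after thinning to equal depth (left) and share of parts with a read in models of at least 3 parts and 100 reads (right) in each of the 6 carpel libraries, mantled in red and normal in blue. Normal replicate 3 is lowest in both panels, at 14653 models and 48.5% of parts, and mantled replicate 3 next lowest.

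Both the spread between palms and the level of a model enter the width of the intervals. The biological coefficient of variation, the relative spread that edgeR estimates beyond counting error, was 35.0% between the 2 libraries of normal palm 1, 49.9% among the 3 mantled palms and 79.7% between the 2 normal palms. Mantled palms 1 and 2 differed by 41.4%, and each differed from mantled palm 3 by 53.8% and 55.0% respectively. The 2 normal palms were therefore further from each other than any pair of mantled palms. Whether normal palm 2 differs as a palm or through the preparation of its single carpel library cannot be told apart. Among the staminodia libraries, that of normal palm 2 also had the fewest models with a read, 15458. It had the fewest assigned reads as well, 2153546, and detection there was not compared at equal depth.

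Which normal palm was kept altered what the comparison showed. With normal palm 1 alone, 5 of 17873 models (0.028%) were called, all lower in mantled carpel. Their median levels were 11.8 CPM in mantled carpel, 265 CPM in normal palm 1 and 32.8 CPM in normal palm 2, and in 2 of the 5 normal palm 2 lay within the range of the mantled libraries. The named model p5_sc00008_cds_513 was among the 5, with a log2 difference of -4.59 (adjusted p = 0.0252 in edgeR, with the lone normal palm assumed to vary like the mantled palms), and its adjusted p ran from 8.97e-06 to 1 over all 15 alternatives. Without mantled palm 3, edgeR called 1 model, and without mantled palm 1, whose identifier has the different prefix, it called 0. With normal palm 2 alone, 0 of 16844 models were called, and 2987 had an unadjusted p under 0.05 in edgeR.

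Those 2987 models leaned to one side. In mantled carpel 2238 of them had higher values and 749 lower. Of the 2238, 1082 (48.3%) had no read in normal replicate 3, against 15.9% of all models tested there. In the 2238 models normal palm 1 lay within the range of the mantled libraries in 1119 (against 57.8% of all models tested there), above it in 251 (11.2% against 18.1%) and below it in 868 (38.8% against 24.1%). These models were chosen by their higher values in the same mantled libraries that form the range. A larger share below that range therefore follows in part from the choice. The part of missing coverage in these values was not tested. With normal palm 1 alone the same count was 288 higher and 245 lower, and 29 of the 288 (10.1%) had no read in either library of normal palm 1, against 2.48% of all models tested there. A model without a read in the normal palm kept can only have a higher value in mantled carpel. The larger share of such models among those with higher values is thus partly built in, in both settings.

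Of 26087 models, 2038 had reads in mantled carpel and none in normal carpel, and 1007 the reverse. With at least 10 reads in total, these counts were 677 and 194. Libraries were not thinned here, and assigned reads ran from 2121145 to 8066978 in mantled and from 2349579 to 4426220 in normal libraries. After thinning, normal replicate 3 had no read in 303 models that were well read in every other library. The part of depth and coverage in these counts, and in the stricter ones that follow, was not tested. Far fewer models passed a stricter rule. With at least 10 reads in every library of one phenotype and none in the other, 7 models were found in mantled carpel alone and 2 in normal carpel alone. Model p5_sc00003_cds_191 had 27, 53 and 25 reads in the mantled libraries and 0 in each normal library, and was at least 23.4-fold higher in mantled carpel, with a floor of 3 counts over the 3 normal libraries together. Model p5_sc00239_cds_39 had 24, 38 and 14 reads in mantled and 0 in normal libraries, at least 16.9-fold higher. In the other direction p5_sc00108_cds_37 had 10, 16 and 17 reads in the normal libraries and 0 in the mantled ones, at least 21.5-fold lower in mantled carpel. Model snap-gene-13.65 of scaffold p5_sc00027 had 17, 12 and 15 reads in normal libraries and 0 in mantled ones, at least 22.0-fold lower. All 4 had an adjusted p of 0.996 in edgeR, with unadjusted values of 0.00361, 0.0109, 0.013 and 0.0136 in the order given. The folds rest on reads pooled over libraries. Their floor covers counting error in the phenotype without reads, and not the spread between palms.

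The deposited features also allow the parts of a model to be compared. In 5512 models with at least 2 tested parts, edgeR's test of unequal change among parts called 0 models (0%) by the Simes method and 0 by the F-test, with 39 models at an unadjusted Simes p under 0.05. The smallest p belonged to p5_sc00008_cds_262, through part 3 of its 20 parts. That part held 0 of 704 reads of the model in mantled carpel, which allows a share of up to 0.426%. In normal carpel it held 4 of 118 reads in replicate 1 (3.39%, exact 95% binomial interval 0.931% to 8.45%), 38 of 233 in replicate 2 (16.3%, 11.8% to 21.7%) and 26 of 98 in replicate 3 (26.5%, 18.1% to 36.4%). All mantled libraries were thus without a read of the part and all normal ones had some, with a wide range between the 2 libraries of normal palm 1. The intervals and limits cover counting error only. Its Simes p was 0.00118 and its adjusted p was 1 in edgeR.

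The second model by this measure was p5_sc01572_cds_7, through part 6 of its 10 parts. No read of that part was found among 1564 reads of the model in mantled carpel, which allows a share of up to 0.192%. In normal carpel the part held 0 of 356 reads in replicate 1, 18 of 463 in replicate 2 (3.89%, exact 95% binomial interval 2.32% to 6.07%) and 23 of 305 in replicate 3 (7.54%, 4.84% to 11.1%). Here 1 of the 2 libraries of normal palm 1 resembled the mantled libraries. Its Simes p was 0.00332 and its adjusted p was 1 in edgeR.

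**Figure D5:**
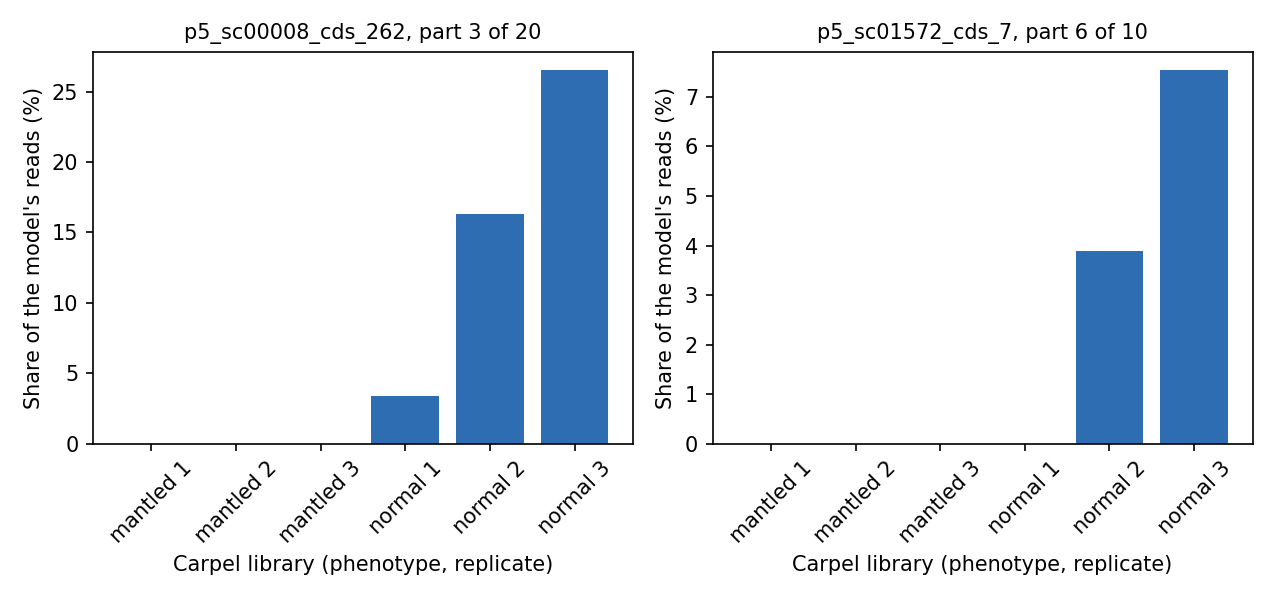
Share of a model's reads that fell in 1 of its parts, in percent, in each of the 6 carpel libraries, for part 3 of p5_sc00008_cds_262 (left) and part 6 of p5_sc01572_cds_7 (right). No mantled library has a read of either part, and the normal libraries range from 3.39% to 26.5% on the left and from 0 to 7.54% on the right.

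Models of 1 scaffold did not lie far to one side in most cases. On 171 scaffolds with at least 20 tested models, 12661 models in all, the scaffold medians of the log2 difference had an SD of 0.132. Of these medians 128 were above 0 and 43 below, where the median over all models was 0.07. Scaffold p5_sc00155 had the highest median, 0.53 over 24 models, of which 75.0% had higher values in mantled carpel. That share was larger on p5_sc00209, at 79.2%, where the median was 0.34. The second highest median was that of p5_sc00079, at 0.43 over 31 models. The lowest medians were -0.45 on p5_sc00129 over 21 models and -0.21 on p5_sc00110 over 21 models. Without normal replicate 3 these 4 medians were 0.25, 0.20, -0.24 and 0.05, while the median over all models was 0.04. With normal palm 2 alone the median over all models was 0.24, and the 4 medians stood at 0.92, 0.84, -0.11 and 0.02, so the last was above 0 but below that of all models. Over the 7 fits with a library or palm left out, the median of p5_sc00155 ran from 0.25 to 0.92 and that of p5_sc00129 from -0.48 to -0.11.

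The staminodia of the same palms give the named models in libraries that the carpel comparison did not use. These libraries add no new palms, so a difference between palms of any origin can recur in them. In mantled and normal flowers augustus-gene-87.59 had levels there of 138 CPM ± 62.2 (SD, n = 3 palms) and 939 ± 185 (SD, n = 2 palms), a log2 difference of -2.77 (SE 0.340, adjusted p = 0.00855 in edgeR, where 3 of 15050 models or 0.0199% were called). Model p5_sc00008_cds_513 stood at 2.97 ± 0.510 and 109 ± 127 CPM, with 200 CPM in normal palm 1 and 19.4 CPM in normal palm 2. The order of the normal palms was thus the same in both organs.

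The named models with higher values in mantled carpel were less separated in staminodia. They were chosen by their smallest p in carpel, so a smaller difference in other libraries follows in part from the choice. Model p5_sc00142_cds_115 stood at 61.2 CPM ± 18.4 (SD, n = 3 palms) in mantled and 39.2 ± 24.7 (SD, n = 2 palms) in normal staminodia, where normal palm 1, at 56.7 CPM, lay above mantled palm 3, at 40.5 CPM. Model augustus-gene-29.45 stood at 51.8 ± 40.5 and 29.9 ± 1.23 CPM, with mantled palm 2, at 9.61 CPM, below both normal palms. The test of the difference itself, an interaction of phenotype and organ with palm as a block, gave -0.62, -1.09, -0.76 and -1.97 log2 units for the 4 models in the order first named (SE 0.233, 0.715, 0.509 and 0.610), with adjusted p from 0.964 to 1 in edgeR, where 2 of 16800 models (0.0119%) were called. None of the 4 was thus shown to differ between the organs in its mantled over normal difference.

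Among 14693 models tested in both organs, all mantled carpel libraries lay below all normal ones in 832 models, and 192 of these (23.1%) did so in staminodia too, against 7.28% of all models. For higher values the share was 195 of 1096 (17.8%), against 7.51%. As shares of the staminodia counts these were 18.0% of 1069 and 17.7% of 1104. Both organs came from the same 5 palms, so a difference between palms of any origin enters both counts.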

How the data were processed

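RNA from laser-captured carpel was measured in 6 libraries, from total RNA after DNase treatment and removal of rRNA, in stranded paired-end libraries, per the labels' protocols. The submitters' processing notes name HTSeq 0.6.1p1, TopHat2 2.0.13, cutadapt, Trim Galore and CASAVA 1.8.2. Build, annotation and the strand option of HTSeq were not given in the sources used here, and overlapping and antisense genes may share reads. Read lengths and instruments are not given per library and could not be checked as batches. The files deposited by the authors hold raw counts per coding feature, in whole numbers. Closing rows that name no feature were left out: reads in no feature made up 47.0% to 49.8% of the rows, those in more than 1 feature 12.3% to 14.3% and those aligned to several places 5.78% to 11.1%. Assigned counts ran from 2121145 to 8066978 per library. Recent gene copies lose reads that align to several places. No molecular identifiers are named, so reads are not independent molecules.

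Going by the form of the IDs, 92649 features are parts of 18394 models, each numbered from 1 without a gap, and 7693 are whole models. Parts were summed to models. Libraries of 1 palm were summed, since the palm is the replicate. The 2 libraries of normal palm 1 differed beyond sampling noise (chi-square 7.97 per degree of freedom over models with 20 or more reads), against 15.0 to 38.0 for libraries of different palms. Libraries were not thinned here, and these values also rise with depth, so they do not measure differences between palms alone.

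Mantled and normal carpel were compared in edgeR 4.0.16 (R 4.3.3) with filterByExpr (minimum count 10), TMM factors, and glmQLFit and glmQLFTest on robust dispersions. Adjustment was by Benjamini-Hochberg over all tested models. Each SE is the absolute log2 difference divided by the square root of the F statistic. Unequal change among parts was tested with diffSpliceDGE. Alternatives used DESeq2 1.42.0, limma 3.58.1, other filters, units and scalings, and left out each library. The steps were run on simulated counts whose palms were set to vary less than the palms here, where the common biological coefficient of variation was 57.4%. That simulation therefore does not measure what could be detected in these data. Named models are, without gene names, up to 2 higher and 2 lower by smallest p (fewer than 10 being called), the 2 of smallest Simes p for parts, up to 2 per direction for models with reads in 1 phenotype, and the 2 highest and 2 lowest scaffold medians. Models, tests and rules were chosen with earlier results of these data known. Marker lists for carpel, stamen, leaf and vascular tissue could not be matched to any ID.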

Additional observations from a re-analysis of the deposited data

How the results depend on the processing

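With 3 mantled and 2 normal palms, 0 models were called, and the count stayed at 0 with median-ratio size factors, each library as a replicate, all 4 groups in 1 fit, features as deposited and counts thinned to the smallest palm sum. It was 24 (6 higher, 18 lower) without a filter, 4 in DESeq2 and 4 in limma voom, and 0 to 5 with 1 library left out. Part usage gave 0 calls in all 10 alternatives. Of the 4 named models, augustus-gene-87.59 was called without a filter (-2.16), in DESeq2 (-2.15) and in limma voom (-2.30), and its adjusted p ran from 3.06e-10 to 1 over the 15 alternatives. Model p5_sc00008_cds_513 was called without a filter (-3.81), in DESeq2 (-3.75) and without normal replicate 3 (-4.59), and was -1.94 with normal palm 2 alone. Model augustus-gene-29.45 was called without a filter (2.51). All 4 kept their direction in all 15 alternatives. The cause of the gained calls was not tested. Models read in mantled carpel alone numbered 36 with at least 5 reads in every mantled library and 1 with at least 20. Those read in normal carpel alone, by the same rule, numbered 3 and 0. The models at least 2 times higher in every mantled library numbered 247 to 466 with 1 library left out and those lower 124 to 176, an alternative chosen after seeing the data. Each of these counts rises because fewer libraries must agree. Models detected in normal replicate 3 were 82.9% of the median of the other libraries, and 88.3% with at least 5 reads. On scaffolds with 50 or more tested models the medians ran from -0.15 to 0.25. The interaction of phenotype and organ called 2 of 16800 models, and 0 with no replicate block. Mantled and normal carpel share no palm, and their replicate numbers only name the libraries, so the comparison has no paired fit. Depth limits the low models most, and replicates number 2 palms in normal carpel.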
